A study of Sus scrofa with 5 samples.

Results

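The AP-1 and EGR immediate early genes of a pig kidney transplanted into a human recipient are described here by bulk RNA sequencing. Members were 10 named genes, FOS, FOSB, FOSL1, FOSL2, JUN, JUNB, JUND, EGR1, ATF3 and MYC. Of these, 8 had counts in the pig-genome table of 15235 gene symbols, and JUN and JUND were analysed only in the human-genome table. The study was the second kidney of a xenotransplantation series, and 5 libraries were made from homogenised core biopsies after ribosomal RNA depletion. The 2 control libraries (replicates 1 and 2) were taken at 0 h and labelled Control, and the xenograft gave 1 biopsy each at 12, 24 and 48 h, labelled xenotransplantation. The cell type field of all 5 reads dissociated kidney cells, although the protocol describes whole biopsies. Pig genotype, age and drug treatment are not given in the sources used here, nor whether the controls came from separate animals or when they were taken relative to surgery. The xenograft biopsies are single samples at successive times, so p-values measure only the spread between these libraries, part of which may be technical. The genes were chosen by their levels in these same 5 libraries, and the biopsy-control comparison is therefore given for them as values with no test.

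Immediate early genes are switched on within minutes of a stimulus, without new protein synthesis, and their short-lived transcripts normally decay soon afterwards. FOS and JUN family proteins pair through leucine zippers to form the transcription factor AP-1, which binds short DNA sites at genes of wound healing, matrix turnover and inflammation. EGR1 is a zinc finger factor induced by the same kinase cascades, and ATF3 and MYC are stress- and growth-responsive factors. In kidney, the group is known to respond to ischemia and reperfusion and also to tissue handling, so both controls are given separately throughout.

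Pig-table totals lay between 56129926 and 71108823 counts. Mitochondrially encoded genes took 21.9% and 33.4% of the pig-table counts in control replicates 1 and 2 and between 11.8% and 14.5% in the biopsies. Kidney markers were abundant in all libraries. The summed level of 7 proximal tubule markers was 11102 and 11331 CPM (counts relative to library size, scaled between libraries by TMM) in the controls and between 1881 and 2878 CPM in the biopsies. The 5 endothelial markers summed to 419 and 325 CPM in the controls and to between 726 and 826 CPM in the biopsies, and the 6 myeloid markers to 50.8 and 56.9 CPM against 272 to 389 CPM. The 4 fibroblast and mural cell markers summed to 834 and 581 CPM in the controls, and to 1400, 2367 and 4624 CPM at 12, 24 and 48 h. Summed T and NK cell markers were 19.7 and 23.4 CPM in the controls and between 10.9 and 13.7 CPM in the biopsies. The 3 podocyte markers summed to 216 and 183 CPM in the controls against 65.3 to 113 CPM. Thick ascending limb markers summed to 3324 and 3121 CPM against 3974 to 5649 CPM, and collecting duct markers to 282 and 292 CPM against 445 to 550 CPM. LYZ, CD3G, HBM and ALAS2 had 0 counts in at least 1 library. In whole tissue, fewer cells of a type and less RNA per cell cannot be told apart. The part that cell makeup or the mitochondrial share plays in the values below was not tested.

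FOS, the founding member of its family, was high in both controls and low in every biopsy. Its level was 246.8 CPM in control replicate 1 and 146.5 CPM in control replicate 2, and 14.5, 11.1 and 7.61 CPM at 12, 24 and 48 h. The groups were far apart, and the 48 h biopsy was the lowest. Against control replicate 1 the 3 biopsies were 17.0-, 22.2- and 32.4-fold lower, and against control replicate 2 they were 10.1-, 13.2- and 19.2-fold lower. FOSB, a close relative of FOS, had the same order. It stood at 114 and 51.9 CPM in the controls and at 10.6, 4.42 and 2.34 CPM at 12, 24 and 48 h. The 48 h biopsy was 48.9-fold below control replicate 1 and 22.2-fold below control replicate 2. The controls lay closest to the biopsies at 12 h, where FOSB was 4.92-fold below control replicate 2. Fitted over the 3 biopsies and 2 controls, the log2 fold change was -4.15 ± 0.34 (SE) for FOS and -3.85 ± 0.65 for FOSB.

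**Figure D1:**
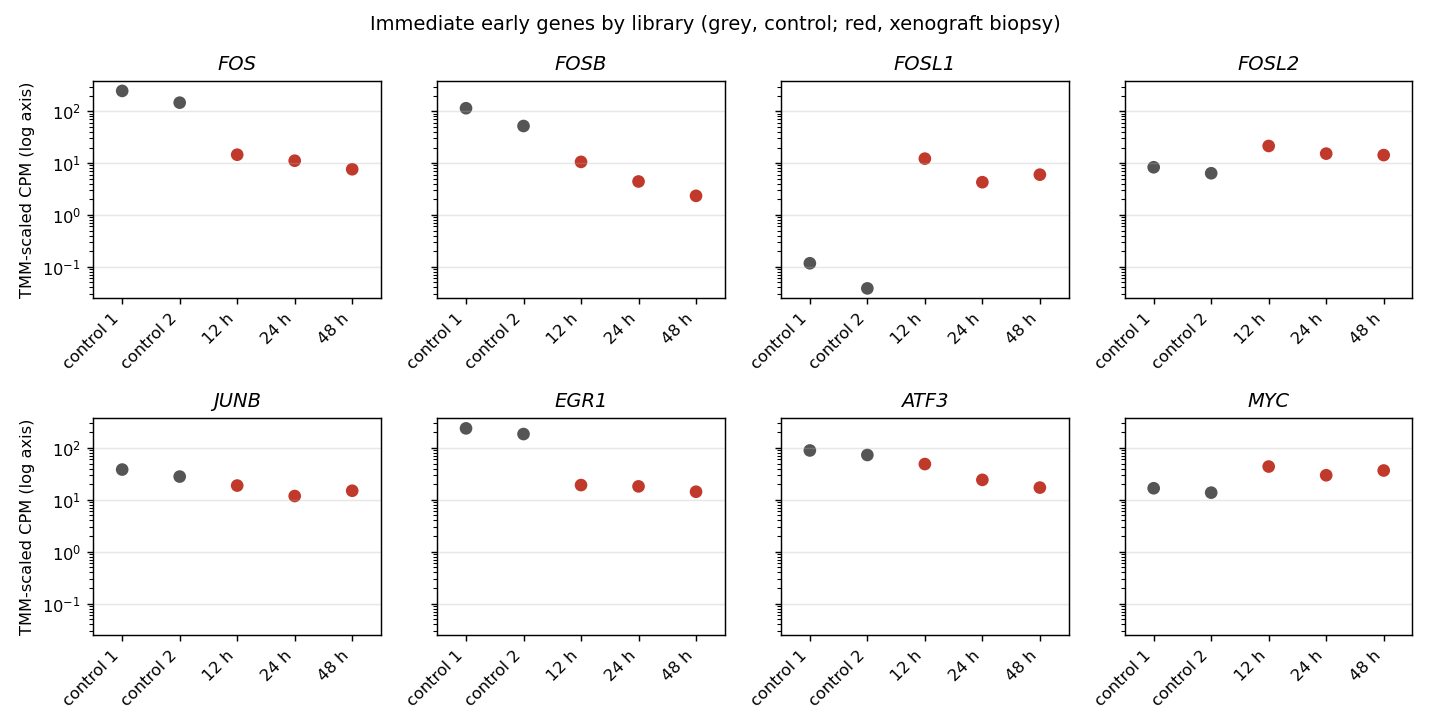
TMM-scaled CPM on a log axis for the 8 members with pig-table counts, 1 point per library, with controls in grey and xenograft biopsies in red. FOS, FOSB and EGR1 sit at 51.9 CPM or more in the controls and at 19.2 CPM or less in the biopsies, while FOSL1 goes from at most 0.12 CPM to at least 4.29 CPM.

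FOSL1, which encodes the FOS-related protein FRA1, went the other way and was close to undetected in the controls. It had 7 and 2 counts in the control libraries, or 0.12 and 0.038 CPM. At 12, 24 and 48 h it had 883, 312 and 402 counts, or 12.2, 4.29 and 5.99 CPM. All biopsies were above both controls, with the highest level at 12 h and the lowest at 24 h. The 12 h biopsy was 104-fold above control replicate 1 (95% exact binomial interval 50.3 to 260, counting error only). Against control replicate 2 the same biopsy was 318-fold higher, with an interval of 87.7 to 2628 that reflects its 2 counts. The lowest biopsy, at 24 h, was still 36.6-fold above control replicate 1 (17.5 to 91.7). The fitted log2 fold change was 6.52 ± 0.74, and 7.54 without control replicate 1. FOSL1 entered the fit only through its biopsy counts, so a difference in that fit was built into its selection.

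FOSL2, encoding the related FRA2, also stood higher in the biopsies, by a smaller factor. Its levels were 8.32 and 6.37 CPM in the controls and 21.4, 15.2 and 14.3 CPM at 12, 24 and 48 h. No biopsy overlapped the controls, and the 12 h biopsy was the highest. It exceeded control replicate 1 by 2.57-fold and control replicate 2 by 3.36-fold. At 48 h the factors were 1.72 and 2.24. The fitted log2 fold change was 1.21 ± 0.23.

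Set against each other within a library, the ratio of FOSL1 to its relatives was far higher in the biopsies than in the controls. Such a ratio does not depend on scaling between libraries, but the counts are not corrected for transcript length, so only its change can be read. For every 100 FOS counts, control replicate 1 had 0.047 FOSL1 counts and replicate 2 had 0.026, whereas the 12, 24 and 48 h biopsies had 84.0, 38.5 and 78.7. For every 100 FOSB counts, the controls had 0.10 and 0.074, and the biopsies 116, 96.9 and 256. On the log2 scale the FOSL1-to-FOS ratio in any biopsy exceeded that in any control by 9.66 to 11.65, and the FOSL1-to-FOSB ratio by 9.89 to 11.76. The FOS ratio was lower at 24 h than at 12 or 48 h. The FOSB ratio was highest at 48 h, where FOSB had its fewest counts (157).

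**Figure D2:**
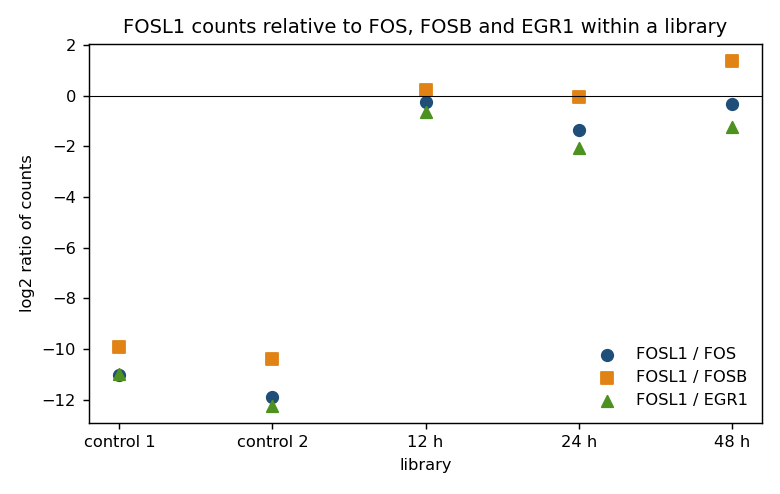
Log2 ratio of FOSL1 counts to FOS, FOSB and EGR1 counts in each of the 5 libraries, with 1 point per library and partner. The ratios to FOS lie at -11.04 and -11.90 in the controls and between -1.38 and -0.25 in the biopsies.

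JUNB, a JUN family partner of the FOS proteins, was lower in the biopsies by a smaller factor than FOS. It stood at 38.3 and 28.1 CPM in the controls and at 18.8, 11.8 and 14.96 CPM at 12, 24 and 48 h. The 24 h biopsy was the lowest. The groups did not overlap on this scale, and the 12 h biopsy was 1.49-fold below control replicate 2. The fitted log2 fold change was -1.13 ± 0.22. ATF3, a stress-induced factor of the ATF/CREB family that can pair with JUN proteins, had 89.5 and 73.2 CPM in the controls and 48.9, 24.2 and 17.2 CPM in the biopsies. The 12 h value lay closest to the controls, 1.83-fold below replicate 1 and 1.496-fold below replicate 2, and the 48 h value was 5.20- and 4.25-fold below them. The fitted log2 fold change was -1.43 ± 0.42. With library totals alone and no scaling factor, JUNB at 12 h (21.6 CPM) lay above control replicate 2 (20.6 CPM), and ATF3 at 12 h (56.0 CPM) did so too (53.6 CPM). These members then overlapped between groups, and the other 6 did not.

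EGR1, the zinc finger factor, followed FOS in direction and size. Its levels were 239 and 185 CPM in the controls and 19.2, 18.2 and 14.3 CPM at 12, 24 and 48 h. The biopsies lay close together, with the highest 1.34-fold above the lowest, and all were far below the controls. They were 12.4-, 13.1- and 16.7-fold below control replicate 1 and 9.64-, 10.2- and 13.0-fold below control replicate 2. The fitted log2 fold change was -3.62 ± 0.18.

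MYC, a growth-promoting transcription factor, stood higher in the biopsies, as FOSL1 and FOSL2 did. It had 16.7 and 13.7 CPM in the controls and 43.8, 29.8 and 36.7 CPM at 12, 24 and 48 h. The smallest factor, at 24 h against control replicate 1, was 1.78 and the largest, at 12 h against control replicate 2, was 3.19. The fitted log2 fold change was 1.27 ± 0.20. In all, 5 of the 8 members had all 3 biopsies below both controls and 3 had them above. Over the 12620 genes tested, 32.6% lay below and 33.7% above in this way. These counts follow from how the genes were chosen, and the background is given for orientation.

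The control libraries differed from each other in these genes. All 8 members were higher in control replicate 1 than in replicate 2, which held for 50.2% of all genes tested. FOSB differed most among members with more than 100 control counts, at 2.20-fold (95% exact binomial interval 2.11 to 2.30, counting error only). FOS followed at 1.68-fold (1.64 to 1.73). JUNB, FOSL2 and EGR1 differed by 1.37-, 1.31- and 1.29-fold, and ATF3 and MYC by 1.22-fold each. FOSL1 was 3.05-fold higher in replicate 1, but on 7 against 2 counts its interval ran from 0.58 to 30.1. A difference of at least 2-fold in this direction was seen for FOSB and FOSL1, and for 1.29% of all genes tested. The reverse, at least 2-fold higher in replicate 2, was found for 0.689%. With 1 library each, no test of this difference was made. The mitochondrial share was lower in replicate 1, as given above. With TMM scaling, the fold between the controls was smaller for all 8 members than that between the nearer control and the nearest biopsy. JUNB came closest, at 1.37-fold between the controls and 1.49-fold from control replicate 2 to the 12 h biopsy.

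Change within the graft was measured as a fitted slope across the 3 biopsy times. The biopsy levels behind it were known when the genes were chosen, so the slopes are not independent of that choice. ATF3 was the member whose slope passed. It fell by 0.95 ± 0.18 (SE) on the log2 scale per 24 h, a factor of 1.93 (edgeR quasi-likelihood test, adjusted p = 0.0298 over all genes), and was lower at each later time. Without the 12 h biopsy its slope was -0.50 with adjusted p = 0.0688. Over all settings tried, its adjusted p ran from 8.34e-14 to that value. The count was thus 1 of 8 members lower and 0 higher, against 0.983% of all genes lower and 3.34% higher.

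FOSB had the steepest slope, -1.41 ± 0.39 per 24 h, and did not pass (adjusted p = 0.122). It passed with DESeq2 (adjusted p = 0.00022), with library totals alone (5.81e-06) and without control replicate 1 or 2 (0.00808 and 0.00842), and its highest value was 0.85, without the 12 h biopsy. FOS had a slope of -0.61 ± 0.22 (adjusted p = 0.193), and EGR1 of -0.29 ± 0.15 (0.319). FOSL1 had a slope of -0.57 ± 0.35 (adjusted p = 0.425), JUNB of -0.16 ± 0.21 (0.738) and MYC of -0.11 ± 0.17 (0.774). FOSL2 had -0.35 ± 0.17 (adjusted p = 0.316). All 8 slopes were below 0, with a median of -0.46, whereas 50.5% of all genes tested had a slope below 0. At an unadjusted p of at most 0.05, ATF3, FOSB and FOS had a negative slope, as did 7.49% of all genes.

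The shape behind these slopes differed between members. All 8 were at their highest among the biopsies at 12 h, as were 38.8% of all genes tested. FOS, FOSB, FOSL2, EGR1 and ATF3 were lower at each later time, which held for 22.5% of all genes. None of the 8 was higher at each later time, as 23.1% of all genes were. FOSL1, JUNB and MYC were lowest at 24 h. From 24 to 48 h, FOSL1 was 1.40-fold higher (95% exact binomial interval 1.20 to 1.63), JUNB 1.26-fold (1.15 to 1.39) and MYC 1.23-fold (1.16 to 1.31). These intervals cover counting error alone, as each time is 1 biopsy. Without the 12 h biopsy the slopes of FOSL1, JUNB and MYC were above 0 (0.48, 0.34 and 0.30) and did not pass (adjusted p = 0.409, 0.408 and 0.441). Without the 48 h biopsy the same 3 slopes passed as negative, at -3.01, -1.34 and -1.11 (adjusted p = 1.92e-05, 0.0173 and 0.0363). Without the 24 h biopsy FOSL1 and FOSL2 passed, at -0.68 and -0.39 (adjusted p = 0.00158 and 0.0353). For FOSL1 the adjusted p over all settings reached 0.601, for FOSL2 0.911, for JUNB 0.985 and for MYC 0.998.

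**Figure D3:**
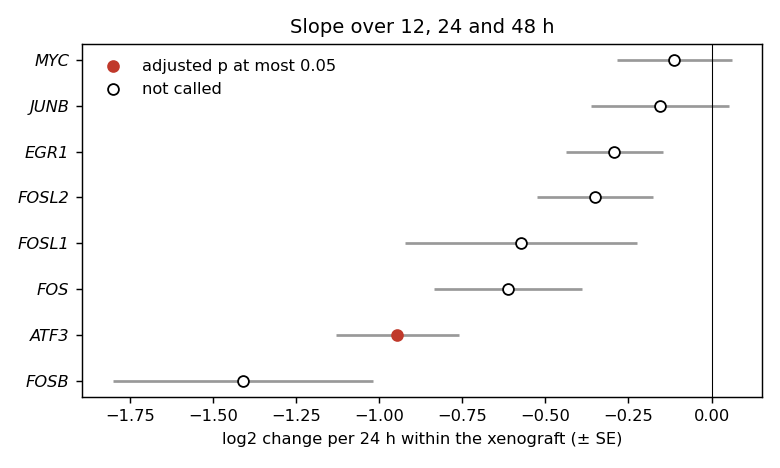
Fitted log2 change per 24 h over the 12, 24 and 48 h biopsies for the 8 members, with bars of 1 standard error. Only ATF3, the filled point at -0.95, had an adjusted p of at most 0.05, and all 8 points lie below 0.

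The human-genome table listed all 10 members. All but FOSL1, with 1 and 0 counts in the controls, had counts in every library. A read that matches both genomes can count in either table or in both, and whether mapping was competitive is not given in the sources used here. The controls had 9969 and 5534 human-table counts of FOS, and the biopsies 832, 658 and 469. For every 100 in the pig table, the controls thus had 67.6 and 72.5, and the successive biopsies 79.2, 81.2 and 91.8. For EGR1 the controls had 55.9 and 57.4 per 100, and the biopsies between 56.1 and 57.2. The EGR1 ratio was thus nearly the same in all 5 libraries. For JUNB the controls had 66.1 and 65.7 per 100, and the biopsies between 77.0 and 82.6. For FOSL2 the controls had 34.8 and 45.2, and the biopsies 54.6, 52.4 and 49.8. ATF3 stayed between 20.4 and 24.1, FOSB between 27.4 and 34.7, and MYC between 27.9 and 35.97. For FOSL1 the biopsies had 131, 39 and 62 human-table counts, or 12.5 to 15.4 per 100. Across 10125 genes with at least 100 pig-table counts in every library, the median was 19.6 and 18.2 per 100 for the controls, against 22.7 to 25.6 for the biopsies. For FOS, JUNB and FOSL2 the ratio was higher in every biopsy than in either control, and for EGR1, ATF3, FOSB, FOSL1 and MYC the groups overlapped. Whether human cells contributed to these counts was not tested.

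JUN, the main partner of FOS in AP-1, could be followed only through the human table. It had 9489 and 5581 counts there in the controls, and 7530, 5140 and 4247 at 12, 24 and 48 h. Pig and human reads cannot be told apart in these counts, so the values of JUN and JUND are not levels in 1 species. The share of each species was not tested. JUN had 673 and 464 human-table CPM in the controls and 358, 259 and 211 CPM at 12, 24 and 48 h. All biopsies were below both controls. The factor below control replicate 1 was 1.88, 2.60 and 3.19 at 12, 24 and 48 h, and below control replicate 2 it was 1.30, 1.79 and 2.20. Like FOS, JUN was higher in control replicate 1, by 1.45-fold. JUND, the JUN family member that is expressed in resting cells, had 125 and 124 CPM in the controls and 77.3, 87.8 and 71.5 CPM in the biopsies. Its controls were within counting error of each other (ratio 1.01, interval 0.94 to 1.08). Its raw counts lay between 1440 and 1762 in all libraries, so the size of its difference between groups depends on the scaling. Scaled by the pig table, JUND reached 29.5 and 28.7 CPM in the controls, against 22.5, 24.0 and 21.5 CPM later. The controls then had 159 and 107 CPM of JUN and the biopsies 104, 70.6 and 63.3 CPM, where the 12 h biopsy nearly reached control replicate 2.

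**Figure D4:**
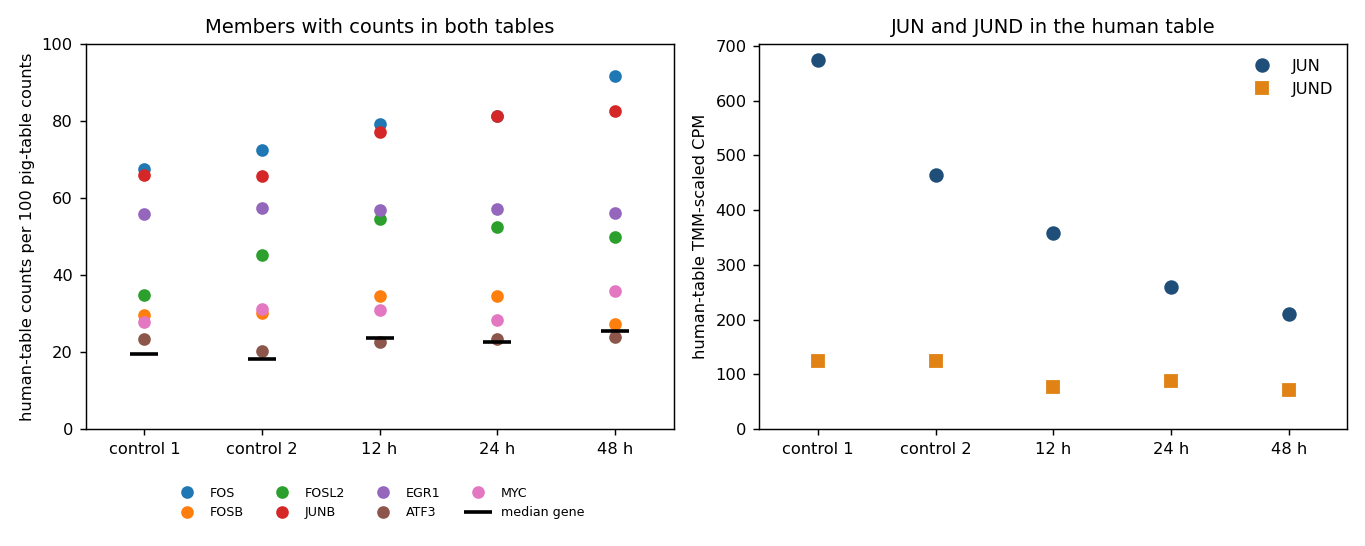
Left, human-table counts in each library for every 100 in the pig table, for 7 members, with the median of 10125 genes as a black bar; the FOS point at 24 h lies under that of JUNB at 81.2. Right, TMM-scaled human-table CPM of JUN and JUND, where JUN runs from 673 CPM in control replicate 1 to 211 CPM at 48 h.

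The genes whose profile over the 5 libraries was most like a member were found by the root mean square difference of log2 CPM, each profile centred on its mean, among 11276 genes. For FOS these were EGR1 (0.33), SLC5A12 (0.33), RNF212B (0.38), FOSB (0.42) and HAO1 (0.44). SLC5A12 is a lactate transporter of the proximal tubule. Its level was 2774 and 2695 CPM in the controls and 322, 210 and 144 CPM in the biopsies. For FOSL1 they were SPP1 (0.39), S100A2 (0.40), ARG1 (0.50), MMP7 (0.54) and WNT7A (0.67). SPP1, which encodes osteopontin, had 75.5 and 74.1 CPM in the controls and 7822, 4248 and 4569 CPM in the biopsies. ARG1 and WNT7A had 0 counts in both controls. Among the members themselves, the closest pair was FOSL2 and MYC (0.14), followed by EGR1 and FOS (0.33). The farthest was FOS and FOSL1 (5.02).

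Other immediate early genes went both ways, and the nuclear receptor and EGR genes were among the lowest. Of 25 genes listed, 22 were tested, 9 fell and 3 rose in the biopsies by edgeR's quasi-likelihood test, and 10 did not pass. Over all genes tested 19% were lower and 18.5% higher, so that 49.3% of the called genes were higher, against 84.4% with library totals alone. The list's median log2 fold change was -0.50, against 0.03 over all genes. NR4A1, an orphan nuclear receptor gene, had 75.5 and 63.8 CPM in the controls and 6.36, 7.23 and 5.54 CPM in the biopsies. It fell by 3.45 ± 0.16 on the log2 scale (adjusted p = 0.000166). EGR3 was 8.88-fold lower at under 1 CPM in all libraries (adjusted p = 0.00411), a call that ended without control replicate 1 (0.0568). Only its control counts carried EGR3 past the low-count filter, so a lower value was favoured by selection. EGR2, like EGR1 a zinc finger factor, had 12.1 and 7.97 CPM in the controls and 1.05, 1.47 and 1.55 CPM in the biopsies (log2 -2.88 ± 0.29, adjusted p = 0.000852). RefSeq places EGR2 over ADO in the pig assembly Sscrofa11.1, so its counts may include reads of ADO. MAF, DDIT3, SPRED1, TIMP1, VEGFA, PLAU, TGFB1 and GNL3, named below, also overlap another annotated gene there, and the members do not.

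The 3 that rose were GADD45B, SGK1 and IER5. GADD45B, a stress-induced gene, had 13.9 and 12.2 CPM in the controls and 83.0, 30.5 and 32.2 CPM in the biopsies (log2 1.89 ± 0.49, adjusted p = 0.0275). SGK1, encoding a kinase that promotes tubular sodium uptake, rose 1.82-fold and IER5 1.47-fold. All 3 calls ended when control replicate 1 (adjusted p = 0.125, 0.0717 and 0.141) or replicate 2 (0.165, 0.104 and 0.244) was left out, and that of GADD45B with library totals alone (0.0531). The number that fell was 3 without control replicate 1 and 4 without replicate 2. Over time, CCN1, which encodes a secreted matrix-associated protein, fell from 192 CPM at 12 h to 62.3 CPM at 48 h (slope -1.03 ± 0.17 per 24 h, adjusted p = 0.0123). The controls had 108 and 92.5 CPM, between the biopsies.

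**Figure D5:**
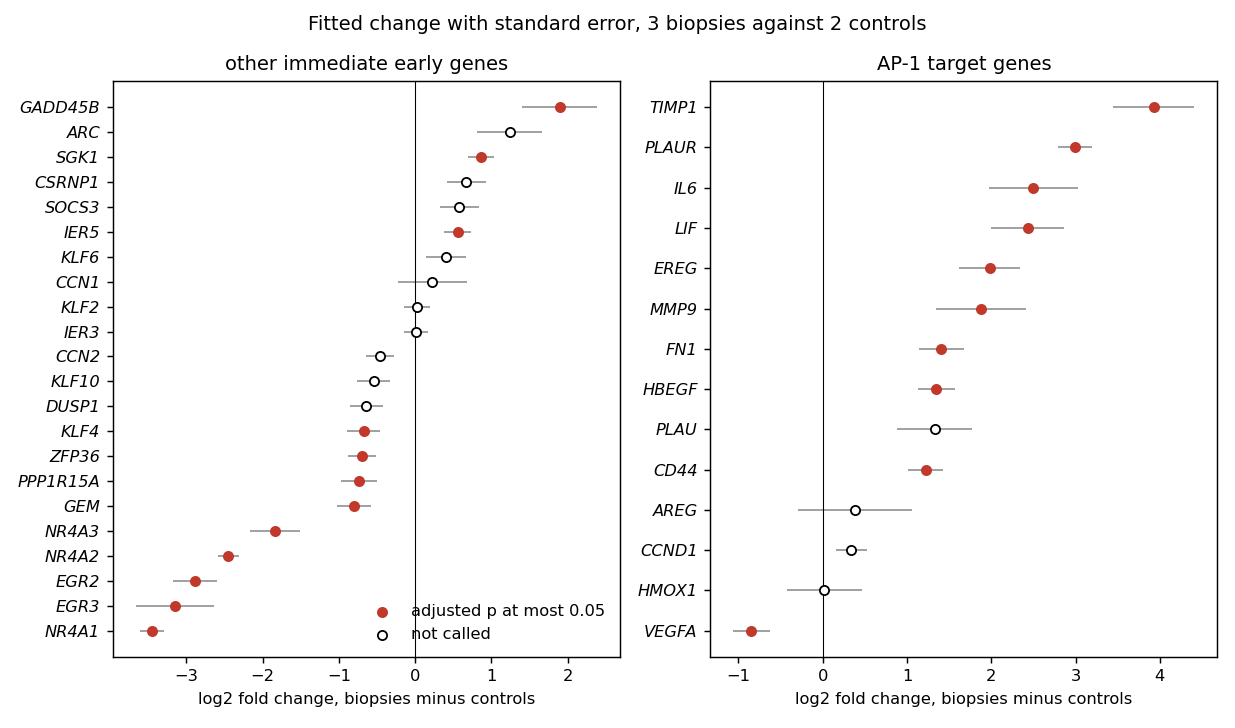
Fitted log2 fold change, biopsies minus controls, with bars of 1 standard error, for 22 other immediate early genes (left) and 14 of the 16 AP-1 target genes tested (right). Filled points had an adjusted p of at most 0.05, 9 lower and 3 higher on the left, and NR4A1 is the lowest at -3.45.

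Genes described as AP-1 targets were mostly higher in the biopsies. Any link to the low FOS and FOSB or the high FOSL1 there was not tested. Of 20 listed, 16 were tested, and 11 rose and 1 fell (median log2 fold change 1.64), beside 18.5% higher and 19% lower over all genes. Some of them had been seen to rise in earlier results of these data, so the count is not independent evidence. IL6 (0.20 and 0.17 CPM in the controls) and MMP9 (0.23 and 0.096 CPM) are among the 11. They passed the low-count filter only with their biopsy counts, so their higher values were favoured by selection. TIMP1, an inhibitor of matrix metalloproteinases, had 8.12 and 6.16 CPM in the controls and 174, 76.6 and 75.5 CPM in the biopsies (log2 3.93 ± 0.48, adjusted p = 0.0024). Its highest level was at 12 h. MMP3, a secreted matrix metalloproteinase gene, had 0 counts in both controls but 59, 34 and 159 at 12, 24 and 48 h, at least 22.6-fold higher with 3 counts per control library as the floor. Only its biopsy counts carried it past that filter, so its higher value was built into its selection, and it too is 1 of the 11. Leaving out either control ended the call (adjusted p = 0.0575 without replicate 1 and 0.0657 without replicate 2). VEGFA, the endothelial growth factor gene, fell by 0.85 ± 0.21 (adjusted p = 0.0212). Its call ended when either control (0.125 and 0.121) or the 24 h library (0.0629) was left out, and with library totals alone (0.154). PLAU, the urokinase gene, rose within the graft from 16.1 to 45.4 CPM (slope 0.98 ± 0.15 per 24 h, adjusted p = 0.00883). The number that rose was 5 without control replicate 1 and 4 without replicate 2.

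Other basic leucine zipper genes, possible partners or competitors of AP-1, had 5 of 20 tested genes higher and 2 lower (median 0.31). Over all genes tested, 18.5% were higher and 19% lower. CEBPB, an acute-phase factor, had 8.64 and 7.16 CPM in the controls and 39.9, 30.2 and 30.5 CPM in the biopsies (log2 2.09 ± 0.19, adjusted p = 0.000671). BATF2, an interferon-responsive gene, rose 3.48-fold and ATF4, of the integrated stress response, 2.42-fold. The call for BATF2 ended without control replicate 2 (adjusted p = 0.0678), and that for ATF4 without either control (0.0688 and 0.0863). MAF was 3.56-fold lower (adjusted p = 0.0027) and CREM 1.58-fold lower, a call that ended without either control (0.0846 and 0.0979) and with library totals alone (0.481). MAFF fell within the graft from 21.8 to 6.81 CPM (slope -1.08 ± 0.16, adjusted p = 0.00828). DDIT3, encoding the stress factor CHOP, fell from 32.5 to 9.31 CPM (slope -1.14 ± 0.21, adjusted p = 0.0232), but did not pass without the 12 h biopsy (0.0836). Without control replicate 1 the list had 3 genes higher and 1 lower, and without replicate 2 it had 2 and 1.

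Of 19 kinase and SRF genes tested, which lie upstream of FOS and EGR1, 4 rose and 1 fell (median 0.25). The shares over all genes were 18.5% higher and 19% lower. The other 14 of 19 missed the threshold, as did 7886 of the 12620 genes overall. Those of the list included the ERK kinase genes MAP2K1 and MAP2K2 with log2 fold changes of -0.04 and 0.31. RPS6KA1, a kinase downstream of ERK, rose 2.82-fold (SE 0.15 on the log2 scale, adjusted p = 0.000852). SRF, the serum response factor that drives FOS and EGR1, had 10.4 and 9.21 CPM in the controls and 17.3, 13.4 and 15.8 CPM in the biopsies (log2 0.66 ± 0.17, adjusted p = 0.0216). MRTFA, an SRF coactivator gene, rose 1.46-fold, and BRAF, a kinase gene of the ERK pathway, was 1.54-fold lower. The calls for SRF, MRTFA and BRAF ended without control replicate 1 (adjusted p = 0.0935, 0.154 and 0.0798) or replicate 2 (0.173, 0.173 and 0.077), and that for BRAF with library totals alone (0.583). ELK3, an SRF cofactor gene, rose within the graft from 23.6 to 47.7 CPM (slope 0.64 ± 0.13, adjusted p = 0.0263). Without the 12 h biopsy its slope was 0.48 and did not pass (adjusted p = 0.0938). In each fit lacking 1 control, 1 gene of this list rose and 0 fell.

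Among 11 ERK feedback genes, which are induced by ERK signalling and mostly restrain it, 3 fell and 1 rose (median -0.09). The shares over all genes were 19% lower and 18.5% higher. ETV5, an ETS factor gene, had 139 and 141 CPM in the controls and 9.71, 21.0 and 23.7 CPM in the biopsies (log2 -2.95 ± 0.36, adjusted p = 0.00225). It was lowest at 12 h, and its slope of 0.73 ± 0.23 did not pass (adjusted p = 0.139). That slope passed with DESeq2 (adjusted p = 0.0215), with library totals alone (0.0157) and on the log2 time scale (0.0265). It also passed without the 24 h biopsy (4.81e-10) or the 48 h biopsy (1.63e-06). With each library left out in turn, the slope ran from 0.17 to 2.23. SPRED2, an inhibitor of the pathway, was 2.51-fold lower (adjusted p = 0.00345) and the phosphatase gene DUSP4 1.83-fold lower, while SPRED1 was 1.32-fold higher. The calls for DUSP4 and SPRED1 ended without control replicate 1 (adjusted p = 0.184 and 0.224), replicate 2 (0.175 and 0.146) or the 24 h biopsy (0.0918 and 0.0925). So did that for SPRED1 without the 48 h biopsy (0.0651) and for DUSP4 with library totals alone (0.239).

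Of 8 cofactor and target genes of EGR1, 3 rose, 1 fell and 4 did not pass (median 0.56), and without control replicate 2 the counts were 1 and 0. Over all genes tested, 18.5% were higher and 19% lower. ICAM1, a leukocyte adhesion molecule gene, rose 3.66-fold (log2 1.87 ± 0.28, adjusted p = 0.00387), PDGFB, a growth factor gene, 2.53-fold and TGFB1 2.29-fold. F3, encoding tissue factor, fell by 0.62 ± 0.18 on the log2 scale (adjusted p = 0.0358). NAB1 and NAB2, repressors that bind EGR proteins, had log2 fold changes of -0.05 and 0.40 and did not pass. The calls for ICAM1 and TGFB1 ended without control replicate 2 (adjusted p = 0.0564 and 0.0698). That for F3 ended when either control (0.238 and 0.135) or the 24 h library (0.0989) was left out, and with library totals alone (0.686).

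Of 13 MYC target genes tested, 9 rose, 0 fell and 4 did not pass (median 0.83), beside 18.5% higher and 19% lower over all genes. CAD, a pyrimidine synthesis gene, had 5.37 and 5.38 CPM in the controls and 20.1, 11.3 and 13.7 CPM in the biopsies (log2 1.49 ± 0.26, adjusted p = 0.00585). The nucleolar genes GNL3 and FBL rose 2.32-fold and 2.16-fold. Like MYC and 38.8% of all genes tested, all 3 were highest among the biopsies at 12 h, but not every gene of the list was. The number that rose was 1 without control replicate 1 and 0 without replicate 2, and CAD (adjusted p = 0.0602 and 0.0719), GNL3 (0.145 and 0.147) and FBL (0.0691 and 0.058) did not pass in these fits. In the network of MYC partners and antagonists, 1 of 8 tested genes rose, MYCL at 2.33-fold, and 1 fell, MNT at 1.55-fold (median -0.02). Both calls ended without control replicate 1 (adjusted p = 0.213 and 0.177), replicate 2 (0.186 and 0.188) or the 24 h biopsy (0.0804 and 0.103), and that for MNT also without the 48 h biopsy (0.0601) and with library totals alone (0.636). MAX, the obligate partner of MYC, had a log2 fold change of 0.26 ± 0.24 and did not pass.

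Heat shock genes, another stress-responsive group, went both ways. Of 10 listed, HSPA1A and HSPA1B had no pig-table counts. Of the 8 tested, 3 rose and 2 fell (median 0.25), beside 18.5% higher and 19% lower over all genes. The cytosolic chaperone genes HSPA8, HSPH1 and DNAJB1 were 2.07-, 1.72- and 1.498-fold higher, and the mitochondrial chaperone genes HSPD1 and HSPE1 were 1.95-fold lower. HSPH1 also fell within the graft (slope -0.51 ± 0.12, adjusted p = 0.0473). That slope passed in neither fit lacking a control (0.104 and 0.105), nor without the 12 or 48 h biopsy (0.0724 and 0.31) or with library totals alone (0.327). The calls for the 3 that rose ended without control replicate 1 (adjusted p = 0.0549, 0.141 and 0.1) or replicate 2 (0.0979, 0.2 and 0.168), and those for HSPH1 and DNAJB1 without the 24 h biopsy (0.0795 and 0.0551). The calls for HSPD1 and HSPE1 ended without control replicate 2 (adjusted p = 0.0708 and 0.0519), and that for HSPD1 without replicate 1 (0.053) and with library totals alone (0.0597).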

How the data were processed

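Total RNA was extracted from homogenised kidney core biopsies and ribosomal RNA was depleted, per the labels' protocols. The authors deposited raw counts per gene symbol in 2 tables, one against a pig genome and one against the human genome (hg38, per the submitters' processing notes). The aligner, the counter, strand use and the full pig build are not given in the sources used here. Pig-table totals were 65919506 and 71108823 counts in the controls and 63238072, 66169176 and 56129926 at 12, 24 and 48 h, so that 1 count is worth 0.0137 to 0.0192 CPM. Genes with too few counts were removed with edgeR's filter (minimum count 10, minimum total 15), leaving 12620. Biopsies were compared with controls, and a slope over hours was fitted within the biopsies, by edgeR 4.0.16 quasi-likelihood tests with TMM scaling and Benjamini-Hochberg adjustment over all genes, at a threshold of 0.05. Intervals on ratios of counts are exact binomial at 95% and cover counting error only. The fits were also run on simulated counts with known changes, drawn independently for each library. That simulation had no serial sampling and no shift in the mitochondrial share, so it cannot show how the fits behave under those conditions. DESeq2 1.42.0, other scalings, no filter, a log2 time scale and fits leaving out each library were alternatives, and scaling human-table counts by the pig table was added after seeing the data. Controls differed well beyond counting noise (chi-square per degree of freedom 218 over 12327 genes). That value was taken on library totals without TMM scaling. It thus includes the unlike mitochondrial shares of the controls, 21.9% and 33.4%, and is not a typical excess per gene. The members and the gene lists were chosen with earlier results of these data known. Beside the members, the text names from each of 9 lists up to 3 genes with the largest fold in each direction among those passing and up to 2 with the largest slope, and the 5 genes most like FOS and FOSL1. Further genes named as not passing (MAP2K1, MAP2K2, NAB1, NAB2 and MAX) were chosen after their values were seen. IL6 and MMP9 were named for their low control counts, and HSPA1A and HSPA1B because they had no pig-table counts. Sex-linked genes were left out of the human table. Some named-gene results are not reported here, and their genes still enter the list counts.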

Additional observations from a re-analysis of the deposited data

How the results depend on the processing

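No paired analysis was possible because the labels number only the controls. No value that passed its test changed sign under the alternatives run, but some slopes that did not pass did so, among them those of FOSL1, JUNB and MYC without the 12 h biopsy. Library totals alone moved the median log2 fold change of all genes from 0.03 to 0.51, a shift of 0.49. Genes called in the biopsies were then 5238 higher and 970 lower, against 2332 and 2402, with 7440 above both controls and 1595 below. Control replicate 1 was at least 2-fold above replicate 2 for 420 genes and the reverse held for 49. In that setting 2 members had a negative slope that passed (FOSB and ATF3). Calls higher and lower in the lists were then 6 and 5 for other immediate early genes, 11 and 1 for basic leucine zipper genes, 12 and 0 for the kinase and SRF list, 5 and 0 for the EGR1 list, 2 and 0 for the MYC network, and 5 and 1 for heat shock genes. ERK feedback genes had 3 higher and AP-1 targets 0 lower. DESeq2 called 265 negative slopes over all genes, 2 of them members (FOSB and ATF3), and 2 kinase and SRF genes lower, and the log2 time scale gave 228 negative slopes, against 124. The cause of these differences was not tested. Leaving out each library in turn, calls over all genes ranged from 464 (without control replicate 2; 738 without replicate 1) to 2633 higher, and from 727 (without control replicate 2; 1056 without replicate 1) to 2633 lower. Without a control, 1 library stands for that group and is assumed to vary like the biopsies. Slopes called higher ranged from 349 to 1728 (662, 1728 and 941 without the 12, 24 or 48 h biopsy, against 422), and slopes called lower from 83 to 1037 (337, 1037 and 585). Without 1 biopsy the slope rests on 2 times. Members with a negative slope called ranged from 0 without the 12 h biopsy to 4 without the 48 h biopsy, with 2 without either control and 3 without the 24 h biopsy. List calls higher ranged over the same fits from 0 to 4 for other immediate early genes, 2 to 6 for basic leucine zipper genes, 1 to 5 for the kinase and SRF list, 0 to 2 for ERK feedback, 4 to 13 for AP-1 targets, 1 to 4 for the EGR1 list, 0 to 1 for the MYC network, 0 to 11 for MYC targets and 0 to 3 for heat shock genes. Calls lower ranged from 3 to 12 for other immediate early genes, 1 to 3 for basic leucine zipper genes, 0 to 2 for the kinase and SRF, AP-1 target, EGR1, MYC network and heat shock lists. The fits without control replicate 1 or 2 gave the fewest calls in most lists. Of 37 named genes that passed, 10 did so in every fit run, among them NR4A1, EGR2, CEBPB, MAF, RPS6KA1, ETV5, SPRED2, TIMP1 and PDGFB. Scaling human-table counts by the pig table moved the log2 ratio of mean biopsy to mean control from -0.66 to -0.36 for JUND and from -1.04 to -0.75 for JUN. With a prior count of 0.5, the 5 genes most like FOS were the same and 3 of the 5 most like FOSL1 were shared. FOSL1 rests on 7 and 2 control counts.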
